A study of Mus musculus with 6 samples.

Results

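The genes described here are 43 genes of the autophagy machinery, chosen by symbol from 34745 genes in a table of RNA sequencing counts, with symbols assigned from Ensembl identifiers. All 43 passed the filter on low counts that left 13815 genes for testing. All libraries came from wild-type mice, from macrophages that had been differentiated in culture out of bone marrow in the presence of M-CSF, at 20 ng/ml. In the inhibitor group, 3 libraries came from cells pretreated with an inhibitor of KAT8 and then given R848. In the DMSO group, 3 libraries came from cells pretreated with the solvent DMSO and then given R848. Both groups thus had R848 at 100 ng/ml for 6 h. R848 (resiquimod) activates TLR7, an RNA sensor of endosomes. KAT8 (MOF) acetylates histone H4, mainly at lysine 16. No label names the compound, its dose or how long cells were pretreated, and cells without R848 were not analysed here. Libraries held 18441352 to 25089320 counts, and the members ranged from 83 counts (Atg10) to 79381 counts (Sqstm1) in a library.

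Autophagy delivers cytoplasm to lysosomes. The ULK kinase complex and the class III PI3-kinase complex start a membrane called the phagophore, which grows by lipid transfer from the endoplasmic reticulum. A pair of ubiquitin-like conjugation systems then attaches ATG8 family proteins to that membrane, cargo receptors bring in what is to be degraded, and the closed autophagosome fuses with a lysosome. TFEB and TFE3 are transcription factors known to induce autophagy and lysosome genes. In macrophages part of the same machinery also attaches LC3 to phagosomes. KAT8 and the acetylation of histone H4 at lysine 16 have been linked to the control of autophagy genes.

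Most autophagy genes that differed were modestly higher with the inhibitor, while Tfeb, the gene for the transcription factor, was lower. Of the 43 members, 20 rose (46.5%), 3 fell (6.98%) and 20 were not called, at an adjusted p under 0.05 (edgeR, quasi-likelihood F test, Benjamini-Hochberg over all tested genes). Among all 13815 tested genes, 24.9% rose and 26.5% fell, so that the share called in either direction was 51.5%, close to the 53.5% of the members. The members' median log2 fold change was 0.18, beside 0.01 for all tested genes, and the fold change was above 0 for 32 of 43 members (74.4%), beside 51.1% of all tested genes. The changes were small. The median size of the log2 fold change was 0.26 among the members and 0.30 among all tested genes. A called log2 fold change of at least 0.5 in size was seen for 6 members (14.0%), namely Sqstm1, Atg16l2, Atg13, Ambra1, Atg2b and Tfeb, beside 25.7% of all tested genes. The largest change of a member was the 1.90-fold fall of Tfeb, so no member reached the 2-fold difference that 1382 of the 13815 tested genes passed. Inhibitor and DMSO libraries were fully separated for 28 members (65.1%), beside 60.6% of all tested genes.

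**Figure D1:**
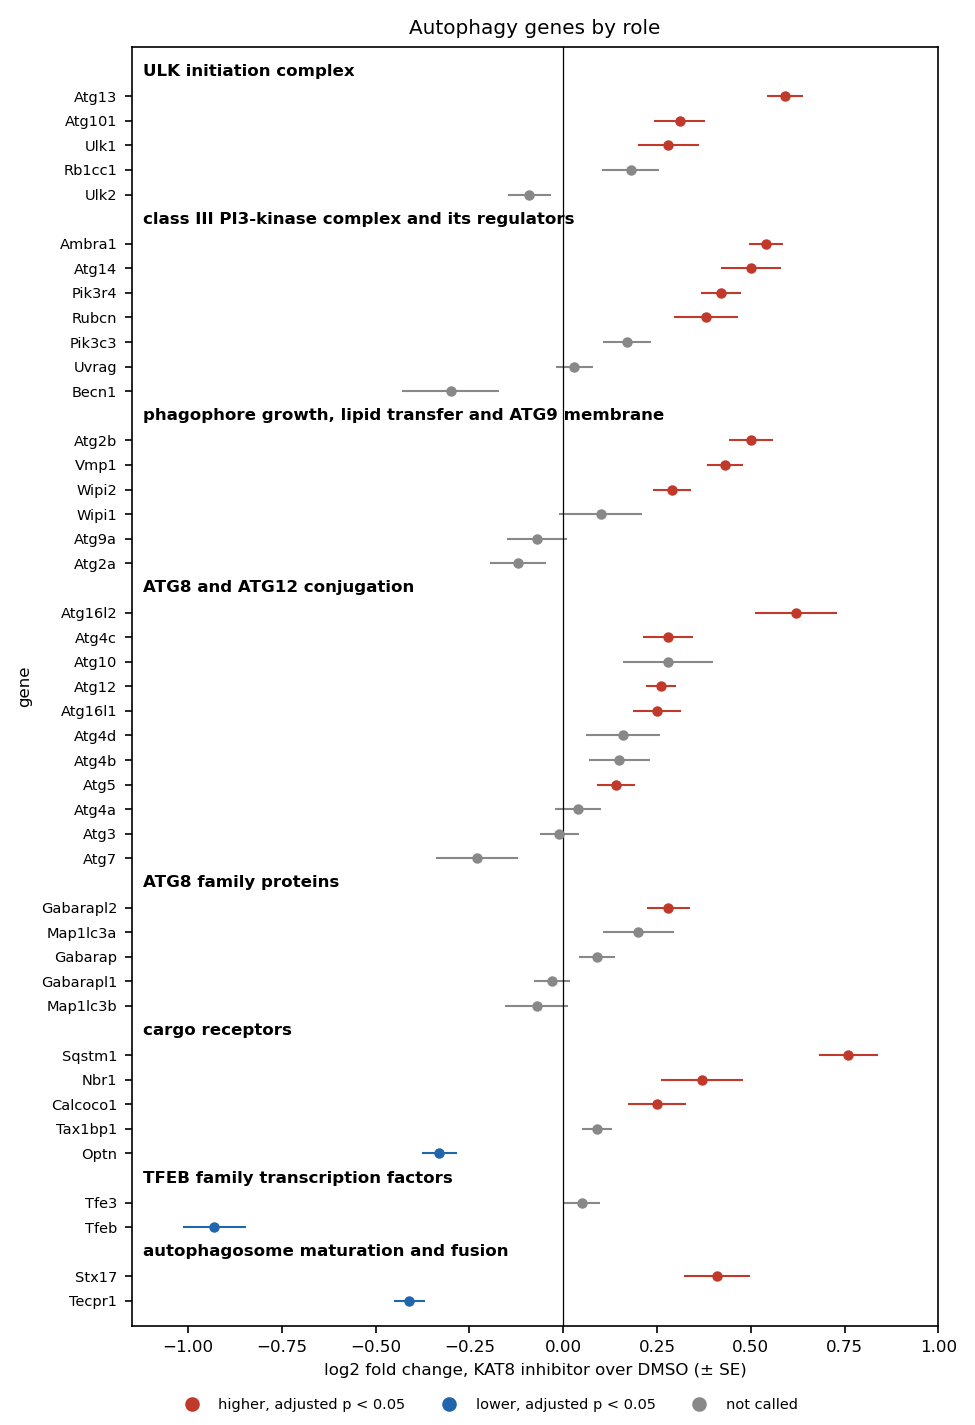
Log2 fold change (KAT8 inhibitor over DMSO) of the 43 autophagy genes, grouped by role, with bars for the standard error and colour for the call at an adjusted p under 0.05. Red points (20 genes) lie between 0.14 and 0.76, and blue points (3 genes) between -0.93 and -0.33.

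Fold changes are relative to the scaling. With library totals in place of TMM factors, the median over all tested genes moved up by 0.11 on the log2 scale, 4887 genes rose and 2843 fell, and 29 members rose and 3 fell. With TMM these numbers were 3446 and 3667 for all genes. In the same libraries 7 of 9 stromal cell markers were lower with the inhibitor, beside 26.5% of all tested genes, and none of the 9 was at 0. Their summed level was 2018 to 2151 CPM (counts per megaread of the TMM-scaled library) in inhibitor libraries and 4493 to 5294 CPM in DMSO libraries. The 8 macrophage markers were all present. Of these, 6 fell, Adgre1 among them, while Csf1r (log2 fold change -0.03) and Cd68 (0.15) were not called. Their summed level was 7557 to 7635 CPM in inhibitor libraries and 11855 to 13527 CPM in DMSO libraries. The largest part of that sum was Lyz2, which averaged 4188 CPM with the inhibitor and 8591 CPM with DMSO. Markers of T and NK cells summed to at most 0.347 CPM, those of the erythroid line to at most 0.497 CPM, those of B cells to at most 3.20 CPM and those of mast cells and basophils to at most 5.58 CPM. Of 8 neutrophil markers 4 were at 0 (S100a9, Ly6g, Elane and Ngp), and the list summed to 2.07 to 2.93 CPM in inhibitor libraries and 6.41 to 7.16 CPM in DMSO libraries. The 6 dendritic cell markers, of which Siglech was at 0 and Itgax is also made by macrophages, summed to 465 to 494 CPM in inhibitor libraries and 804 to 884 CPM in DMSO libraries. Nearly all of that sum was Itgax, which averaged 467 CPM with the inhibitor and 833 CPM with DMSO. The part of these cell types in the members' differences was not tested. In bulk RNA, fewer cells of a type and less RNA of single marker genes per cell cannot be told apart. Kat8 mRNA itself had 21.1, 20.8 and 20.4 CPM in inhibitor libraries, against 15.5, 16.9 and 15.8 CPM in DMSO libraries.

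Promoter sequences are given here because TFEB, the member that fell most, is known to bind E-box sites. RefSeq windows (GRCm38.p6) of 300 bases, from 250 before to 50 after an annotated start, were found for 37 of the 43 members. On both strands they were searched for the E-box CACGTG, for its longer TFEB-type form TCACGTG, which contains the E-box, and for TGACNNNGC, the core of sites for the antioxidant factor NRF2. The E-box was present in 5 of 37 members (13.5%) and in 8.09% of 27025 genes with such windows. The longer form was present in 4 members (10.8%) and in 4.29% of genes, and the NRF2-type core in 5 members (13.5%) and 14.0% of genes. E-boxes lay before an annotated RefSeq start of Atg3, Atg5, Atg7 and Rubcn and across one of Atg14. For Atg7, Rubcn and Atg14 that start lies inside the gene and not at its outer 5′ end. Those 5′ ends are at 114643097 for Atg7 (plus strand), 32877766 for Rubcn and 47570649 for Atg14 (both minus strand). The first 4 are printed with the E-box in capitals, 5′ to 3′ on the gene's strand.
Atg3 (chr16:45158710-45158765, plus strand): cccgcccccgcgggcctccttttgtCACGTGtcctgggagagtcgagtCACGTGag
Atg5 (chr10:44268300-44268338, plus strand): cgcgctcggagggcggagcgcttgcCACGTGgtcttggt
Atg7 (chr6:114670939-114670994, plus strand): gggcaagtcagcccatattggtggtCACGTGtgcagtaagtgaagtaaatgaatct
Rubcn (chr16:32868424-32868479, minus strand): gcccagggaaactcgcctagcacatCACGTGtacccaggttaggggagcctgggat
Of these 5 genes Atg14, Rubcn and Atg5 rose, and Atg3 and Atg7 were not called. Atg3, whose window was the only one of the 5 with a pair of E-boxes, had a log2 fold change of -0.01. The NRF2-type core occurred at Atg13 and Vmp1, which rose, and at Map1lc3b, Tax1bp1 and Ulk2, which were not called. The windows of Sqstm1, the member with the largest rise, and those at the annotated starts of Tfeb held none of the 3 motifs. The 250 bases before the start of Sqstm1 are printed for comparison, in lower case throughout as no motif was found.
Sqstm1 (chr11:50210821-50211070, minus strand): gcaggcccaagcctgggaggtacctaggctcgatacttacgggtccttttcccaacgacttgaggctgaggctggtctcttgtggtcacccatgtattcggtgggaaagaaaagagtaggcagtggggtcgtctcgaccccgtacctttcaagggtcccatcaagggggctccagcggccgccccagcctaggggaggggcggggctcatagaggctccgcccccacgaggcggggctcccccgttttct
A match is a description of these letters, and its absence from these windows bears on no other part of a gene.

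Among the 5 genes of the ULK complex, which starts autophagy and is held in check by mTORC1, 3 rose and Ulk2 and Rb1cc1 were not called. Beside the counts of this and of each further role group stand the shares of all tested genes, of which 24.9% rose and 26.5% fell. Atg13, the adaptor that joins the kinase to its scaffold, had 74.6, 75.4 and 72.7 CPM in inhibitor libraries, against 51.3, 47.9 and 48.8 CPM in DMSO libraries. Every inhibitor library was above every DMSO library, and Atg13 rose 1.51-fold (log2 fold change 0.59, SE 0.048, adjusted p = 2.88e-05). Atg101, the partner that stabilises ATG13, had 24.0, 26.1 and 25.8 CPM with the inhibitor, against 19.4, 21.1 and 20.8 CPM with DMSO. Here too the groups did not overlap, and the rise was 1.24-fold (log2 fold change 0.31, SE 0.069, adjusted p = 0.00626). Ulk1, the main kinase of the complex, rose 1.21-fold (adjusted p = 0.0210), but was not called without inhibitor replicate 2 (adjusted p = 0.0714), DMSO replicate 2 (0.0586) or DMSO replicate 3 (0.0592). Its paralog Ulk2 averaged 41.5 ± 0.190 CPM with the inhibitor and 44.2 ± 2.38 CPM with DMSO (SD, n = 3 each). Rb1cc1, the FIP200 scaffold, averaged 34.5 ± 0.270 CPM with the inhibitor and 30.5 ± 2.95 CPM with DMSO (adjusted p = 0.0789). Rb1cc1 passed as higher without DMSO replicate 1 (adjusted p = 0.0102), with library totals (0.0195) and with GC content and exon length trends removed (0.00963).

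Of the 7 genes of the class III PI3-kinase complex and its regulators, which make the lipid PI3P on the new membrane, 4 rose and 3 were not called. Ambra1, a regulator that binds Beclin 1, had 83.4, 88.3 and 87.4 CPM in inhibitor libraries, against 59.9, 59.4 and 58.5 CPM in DMSO libraries. The groups were well apart and the rise was 1.46-fold (log2 fold change 0.54, SE 0.045, adjusted p = 2.93e-05). Atg14, which directs the complex to sites of autophagosome formation, had 20.9, 18.2 and 18.6 CPM with the inhibitor, against 13.9, 13.7 and 13.3 CPM with DMSO, a 1.41-fold rise (adjusted p = 0.00114). Pik3r4, the VPS15 regulatory subunit, rose 1.34-fold and Rubcn, an inhibitor of the complex that contains UVRAG, rose with a log2 fold change of 0.38. The genes for the catalytic subunit and for Beclin 1 were among those not called. Pik3c3, which encodes the lipid kinase VPS34, averaged 38.1 ± 1.16 CPM with the inhibitor and 34.0 ± 2.07 CPM with DMSO (adjusted p = 0.0615), and passed as higher without DMSO replicate 3 (adjusted p = 0.0379), with library totals (0.00691) and with GC content and exon length trends removed (0.0321). Becn1 was the most variable of the 7, at 77.1, 60.4 and 57.9 CPM in inhibitor libraries, against 81.8, 68.3 and 90.6 CPM in DMSO libraries. Its groups overlapped (log2 fold change -0.30, adjusted p = 0.0852), and it passed as lower without inhibitor replicate 1 (adjusted p = 0.0167), without DMSO replicate 2 (0.0301) and with DESeq2 (0.0287). Exons of Becn1 overlap those of Cntd1 on the opposite strand over 43.9% of their length, and Cntd1 was at 0.0395 CPM with the inhibitor and 0.176 CPM with DMSO. Uvrag, whose product acts in later endosome and autophagosome steps, had a log2 fold change of 0.03 (SE 0.050). The predicted gene Gm45187, on the opposite strand, overlaps 17.6% of the exons of Uvrag.

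Atg13 and Ambra1 are close neighbours. In mm10 Atg13 (ENSMUSG00000027244) lies on the minus strand of chromosome 2 at 91674618 to 91710576 and Ambra1 (ENSMUSG00000040506) on the plus strand at 91730134 to 91918849. Their starts face away from each other across 19.6 kb that hold Harbi1 and the predicted gene Gm13776. The next closest pair of members, Becn1 and Nbr1 on chromosome 11, are 249.9 kb apart, and the 43 genes lie on 19 chromosomes.

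Phagophore growth needs PI3P-binding WIPI proteins, the ATG2 lipid transfer proteins and the lipid scramblases ATG9A and VMP1. Of these 6 genes 3 rose, 1 from each of the pairs Atg2a and Atg2b, and Wipi1 and Wipi2, together with Vmp1. Atg2b (ENSMUSG00000041341, chromosome 12, 105616136 to 105685211, minus strand) had 85.6, 79.3 and 79.1 CPM in inhibitor libraries, against 59.3, 53.8 and 59.1 CPM in DMSO libraries. It rose 1.42-fold with no overlap between groups (log2 fold change 0.50, SE 0.058, adjusted p = 0.000189). Its paralog Atg2a averaged 46.6 ± 1.40 CPM with the inhibitor and 50.7 ± 4.99 CPM with DMSO (log2 fold change -0.12, adjusted p = 0.215). Vmp1 (ENSMUSG00000018171, chromosome 11, 86583865 to 86683836, minus strand), whose product sits in the endoplasmic reticulum, had 169, 157 and 168 CPM with the inhibitor, against 127, 122 and 118 CPM with DMSO. All inhibitor libraries were above all DMSO libraries, a 1.35-fold rise (log2 fold change 0.43, SE 0.048, adjusted p = 0.000152). The gene Mir21a lies within the exons of Vmp1 on the same strand and covers 2.4% of them, so reads from the end of Vmp1 and from the precursor of that microRNA cannot be told apart. Wipi2 rose 1.22-fold, and Wipi1 (log2 fold change 0.10) and Atg9a (-0.07) were not called. The predicted gene Gm29253 covers 31.8% of the exons of Atg9a on the same strand and was itself at 3.58 CPM with the inhibitor and 0.492 CPM with DMSO, so reads of this pair cannot be told apart. The difference between paralogs in their response was not tested.

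Conjugation genes were the largest group. Of 11 members 5 rose and 6 were not called. Those that rose were Atg12, Atg5, Atg16l1 and Atg16l2, which belong to the ATG12-ATG5-ATG16L family of complexes that directs lipid attachment, and the ATG8 protease Atg4c. Atg16l2 (ENSMUSG00000047767, chromosome 7, 101263034 to 101302251, minus strand), a paralog of Atg16l1, had 8.97, 9.78 and 9.87 CPM in inhibitor libraries, against 6.63, 6.47 and 5.54 CPM in DMSO libraries. It rose 1.54-fold without overlap (log2 fold change 0.62, SE 0.11, adjusted p = 0.00176). Atg16l1 rose 1.19-fold (55.3 ± 3.69 CPM with the inhibitor and 46.4 ± 1.57 CPM with DMSO, SD, n = 3 each). Atg12, the ubiquitin-like modifier, rose 1.19-fold and Atg4c 1.22-fold. Atg5 rose by only 1.10-fold (adjusted p = 0.0487) and was not called without any single library (adjusted p = 0.0539 to 0.152), with DESeq2 (0.124) or with median-of-ratios scaling (0.0564). The activating and conjugating enzymes were not called with all libraries. Atg3, the E2-like enzyme for ATG8 proteins, had 103, 108 and 110.0 CPM with the inhibitor, against 101, 112 and 109 CPM with DMSO, so the groups overlapped (log2 fold change -0.01, SE 0.053). Atg7, the E1-like enzyme shared by both conjugation systems, averaged 47.1 ± 3.55 CPM with the inhibitor and 55.4 ± 8.62 CPM with DMSO (log2 fold change -0.23, adjusted p = 0.107). Atg7 passed as lower without DMSO replicate 1 (log2 fold change -0.33, adjusted p = 0.0305), and without DMSO replicate 2 its log2 fold change was -0.11 (adjusted p = 0.310). Atg10, the E2-like enzyme for ATG12, was at 5.85 ± 0.574 CPM with the inhibitor and 4.81 ± 0.238 CPM with DMSO (adjusted p = 0.0887). The proteases Atg4a, Atg4b and Atg4d had log2 fold changes of 0.04 to 0.16. Exons of Atg4d overlap those of Kri1 on the opposite strand over 19.3% of their length, and Atg4a has a close copy, Atg4a-ps.

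ATG8 family proteins coat the autophagosome membrane and bind the receptors. Gabarapl2 alone among the 5 genes passed, rising 1.21-fold (60.0 ± 3.72 CPM with the inhibitor and 49.5 ± 0.944 CPM with DMSO, SD, n = 3 each; adjusted p = 0.00455). Gabarap, the gene of this family with the highest level per kb of exon, had 475, 464 and 457 CPM in inhibitor libraries, against 413, 456 and 446 CPM in DMSO libraries. These values lay just apart, and the difference was not called (log2 fold change 0.09, SE 0.048, adjusted p = 0.167). Gabarapl1 averaged 213 ± 7.66 CPM with the inhibitor and 217 ± 10.1 CPM with DMSO, and 1700101I11Rik, on the opposite strand of 28.3% of its exons, was at 1.59 CPM with the inhibitor and 0.765 CPM with DMSO. Map1lc3b, the LC3B gene whose protein is the usual marker of autophagosomes, had 40.1, 41.9 and 49.7 CPM with the inhibitor, against 47.7, 45.6 and 44.8 CPM with DMSO. Its groups overlapped (log2 fold change -0.07, SE 0.084), inhibitor replicate 3 being the highest of the 6 libraries. In Map1lc3a inhibitor replicate 3 was instead the lowest, at 29.2 CPM beside 37.5 and 36.4 CPM in the other inhibitor libraries, against 30.2, 29.9 and 29.6 CPM in DMSO libraries. Without that library Map1lc3a passed the test as higher (log2 fold change 0.31, adjusted p = 0.00752).

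Cargo receptors showed both directions, with 3 of 5 genes rising and Optn falling. Sqstm1 (ENSMUSG00000015837, chromosome 11, 50199366 to 50210827, minus strand) encodes p62, a receptor for ubiquitinated cargo that binds the NRF2 inhibitor KEAP1, and its gene is a known NRF2 target. Sqstm1 had 3056, 3047 and 2574 CPM in inhibitor libraries, against 1623, 1676 and 1831 CPM in DMSO libraries. Its lowest inhibitor library was well above its highest DMSO library, and it rose 1.69-fold (log2 fold change 0.76, SE 0.078, adjusted p = 0.000101). Exons of Sqstm1 overlap those of Mrnip on the opposite strand over 17.3% of their length, and Mrnip was at 0.640 CPM with the inhibitor and 0.635 CPM with DMSO. Optn (ENSMUSG00000026672, chromosome 2, 5020642 to 5064051, minus strand), which encodes optineurin, a receptor for mitochondria and bacteria, had 60.6, 61.7 and 58.9 CPM with the inhibitor, against 73.7, 77.2 and 77.2 CPM with DMSO. It fell 1.26-fold with no overlap between groups (log2 fold change -0.33, SE 0.046, adjusted p = 0.000493). Nbr1, a receptor related to p62, rose 1.29-fold (adjusted p = 0.0243), although 81.4 CPM in inhibitor replicate 1 was below 83.4 CPM in DMSO replicate 3. Calcoco1, a receptor for the endoplasmic reticulum and Golgi, rose 1.19-fold (adjusted p = 0.0251). Both calls were lost in some settings. Nbr1 was not called without inhibitor replicate 2 (adjusted p = 0.0726) or 3 (0.0796) or DMSO replicate 1 (0.0778) or 2 (0.0735), and Calcoco1 without inhibitor replicate 1 (0.0832) or 2 (0.0795) or DMSO replicate 1 (0.0734) or 2 (0.0633). Tax1bp1 averaged 327 ± 6.69 CPM with the inhibitor and 306 ± 9.84 CPM with DMSO (adjusted p = 0.0889).

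**Figure D2:**
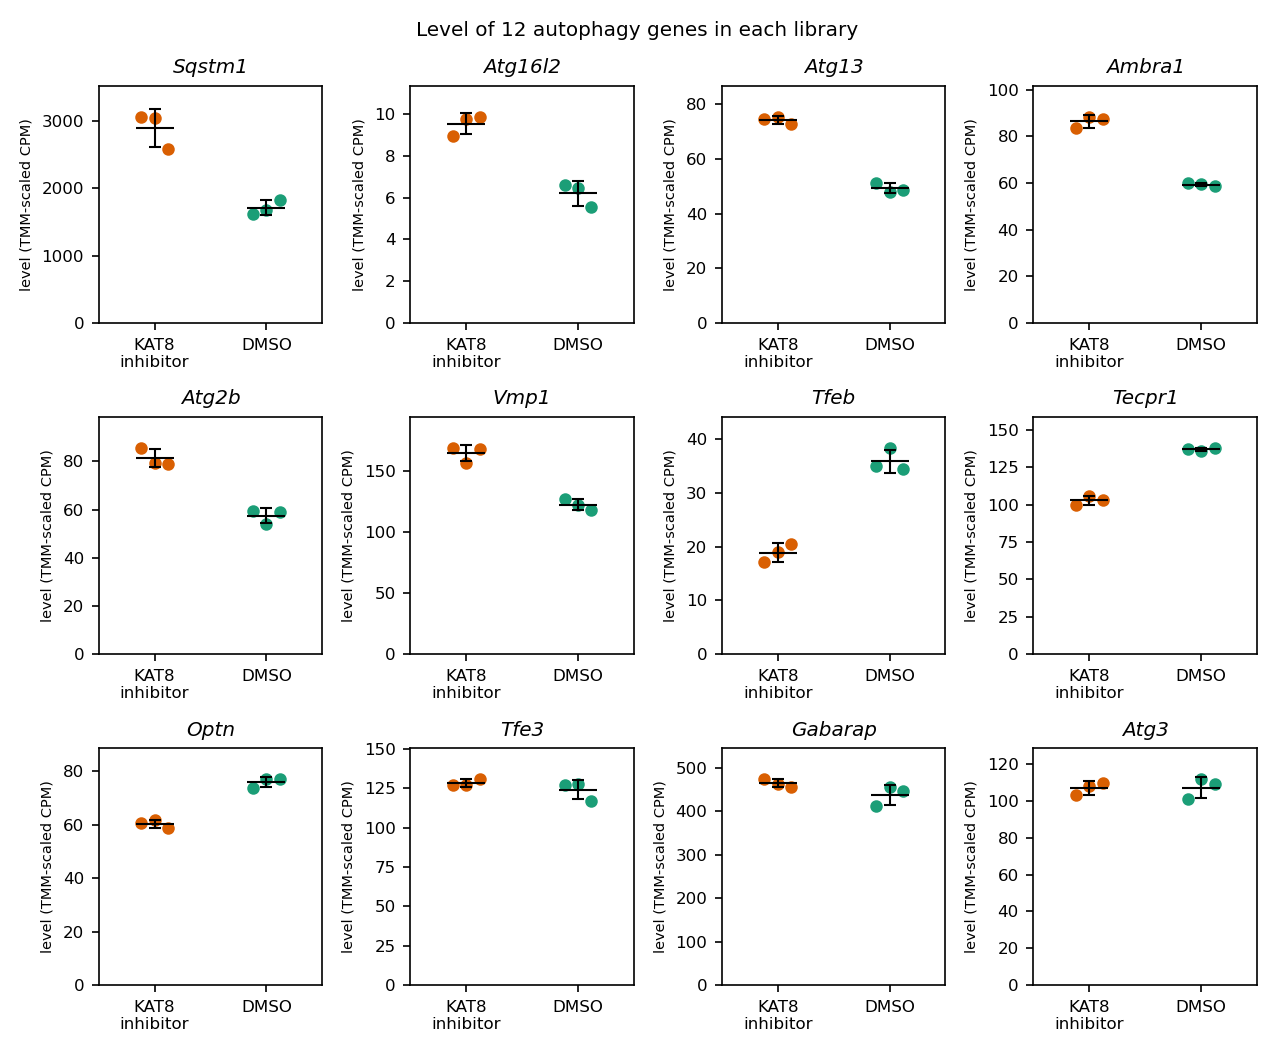
Level (TMM-scaled CPM, each axis from 0) of 12 autophagy genes in the 3 inhibitor and 3 DMSO libraries, with each point a library and bars for the mean and SD. Tfeb lies between 17.1 and 20.5 CPM in inhibitor libraries and between 34.4 and 38.4 CPM in DMSO libraries, while Atg3 and Tfe3 overlap.

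The 2 transcription factors differed in their values. Tfeb (ENSMUSG00000023990, chromosome 17, 47737030 to 47792419, plus strand) had 17.1, 19.1 and 20.5 CPM in inhibitor libraries, against 35.0, 38.4 and 34.4 CPM in DMSO libraries. Every inhibitor library was far below every DMSO library, a 1.90-fold fall (log2 fold change -0.93, SE 0.084, adjusted p = 4.99e-05). Tfe3 had 127, 127 and 131 CPM with the inhibitor, against 127, 128 and 117 CPM with DMSO, so its groups overlapped (log2 fold change 0.05, SE 0.047, adjusted p = 0.404). Per kb of exon, Tfe3 averaged 13.9 CPM with the inhibitor and 13.4 CPM with DMSO, and Tfeb 3.33 CPM with the inhibitor and 6.34 CPM with DMSO. Among other transcription regulators fixed as a list of 13, 6 rose and 2 fell. Foxo3, a forkhead factor known to induce autophagy genes in muscle, averaged 88.0 ± 0.869 CPM with the inhibitor and 49.9 ± 1.69 CPM with DMSO (log2 fold change 0.82, SE 0.046, adjusted p = 3.89e-06). Mitf, a relative of Tfeb, fell 1.12-fold, and Nfe2l2, the NRF2 gene, fell to 459.7 ± 7.26 CPM with the inhibitor, against 552 ± 12.9 CPM with DMSO. Msl2, a subunit of the MSL complex that holds KAT8, rose 1.28-fold, and Kat8 rose 1.29-fold.

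The 2 genes of maturation and fusion moved in opposite directions. Tecpr1 (ENSMUSG00000066621, chromosome 5, 144194442 to 144223615, minus strand), whose product binds ATG5-ATG12 and membranes of the lysosomal system, had 99.6, 106 and 103 CPM in inhibitor libraries, against 137, 136 and 138 CPM in DMSO libraries. It fell 1.33-fold without overlap (log2 fold change -0.41, SE 0.041, adjusted p = 8.75e-05). Stx17, the SNARE protein gene of autophagosome fusion, had 38.5, 34.3 and 39.2 CPM with the inhibitor, against 28.5, 30.7 and 25.2 CPM with DMSO. It rose 1.33-fold with groups apart (log2 fold change 0.41, SE 0.089, adjusted p = 0.00530).

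Levels of the members were compared per kb of exon, to adjust for gene length as annotated. Over all 6 libraries Sqstm1 was highest at 686 CPM per kb, followed by Gabarap at 245 and Gabarapl1 at 107 CPM per kb. Next came Vmp1 (37.1), Atg3 (34.0) and Tax1bp1 (31.7). Vmp1 was above Atg3 in inhibitor libraries, at 42.7 and 33.9 CPM per kb, and not in DMSO libraries, at 31.6 and 34.0 CPM per kb. Atg16l2 was lowest, at 1.13 CPM per kb with the inhibitor and 0.733 with DMSO. The first 3 places were the same with the median length of coding transcripts in place of all exons, but ranks further down depended on the length used: Map1lc3b was 29th by all exons and 12th by coding transcripts, and Becn1 18th and 7th. Within a group the members had a median coefficient of variation of 4.40% with the inhibitor and 4.67% with DMSO, beside 6.02% and 7.72% for all tested genes. The members had at least 83 counts in every library, while the filter's minimum count was 10. The part of count depth in this difference was not tested.

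**Figure D3:**
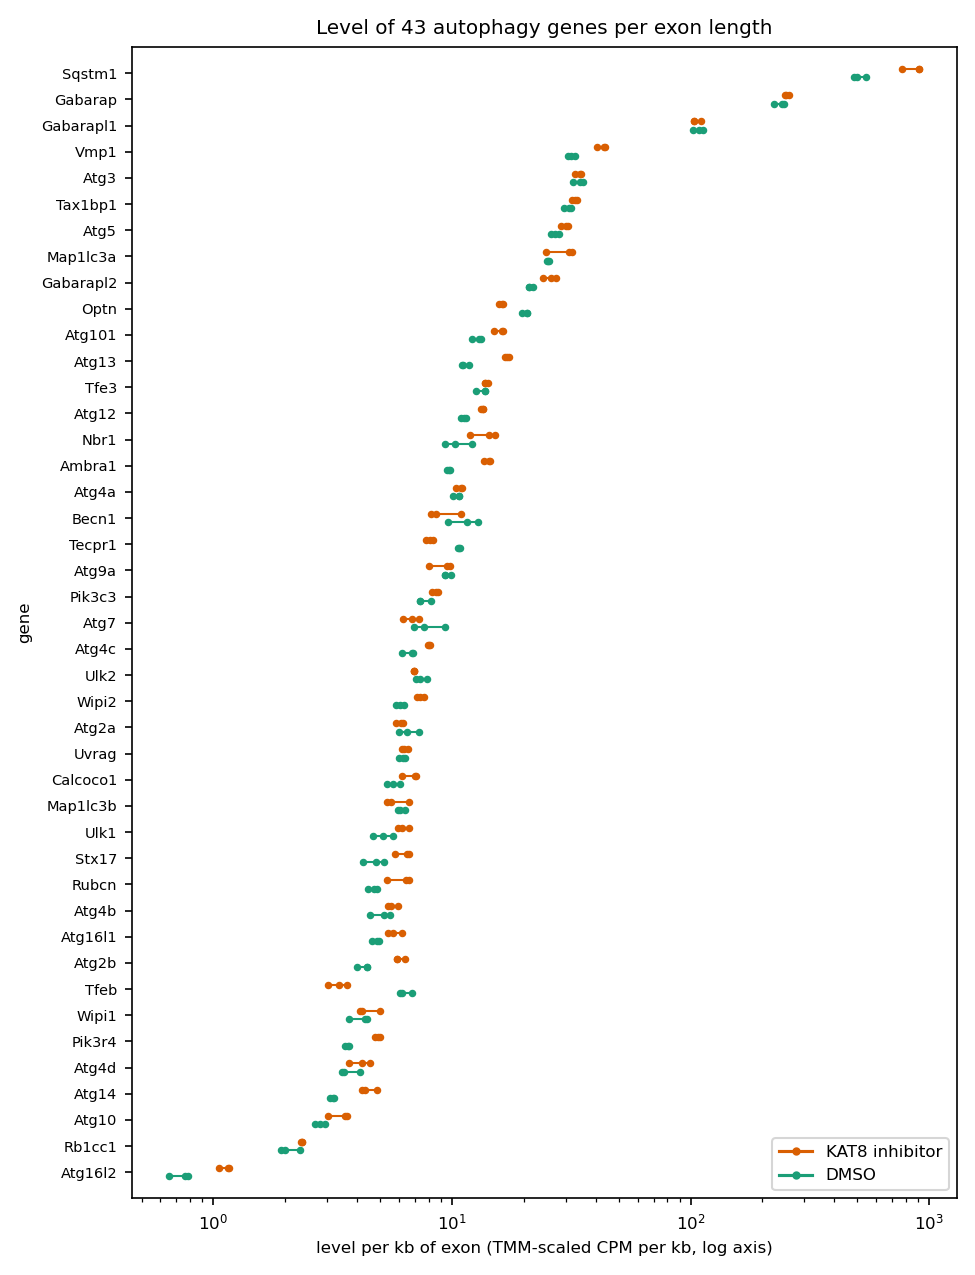
Level of the 43 genes per kb of exon (TMM-scaled CPM per kb, log axis) in each library, ordered by the mean over all 6, with lines from the lowest to the highest library of a group. Sqstm1, Gabarap and Gabarapl1 stand above all others, and Tfeb is the gene with the widest distance between inhibitor and DMSO libraries.

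Beyond the members, 104 genes in 9 lists covered the control and the use of the pathway. Of the 100 that were tested, 39 rose and 19 fell, with a median log2 fold change of 0.12. Among all tested genes 24.9% rose and 26.5% fell, with a median of 0.01. The same shares stand beside the counts of each of the 9 lists. Of 9 genes of mTORC1, the kinase complex that restrains autophagy, and of its TSC brake, 5 rose and 4 were not called. Rptor, the scaffold of mTORC1, rose 1.36-fold and Tsc2, part of the brake, 1.22-fold, while Mtor itself averaged 85.6 ± 3.48 CPM with the inhibitor and 78.6 ± 1.64 CPM with DMSO (adjusted p = 0.0561). Of 24 genes through which Rag GTPases sense amino acids 10 rose and 5 fell. Fnip2, a folliculin partner that acts on the Rag GTPases, had 366, 370.0 and 359 CPM in inhibitor libraries, against 202, 189 and 197 CPM in DMSO libraries. This was a clear separation and a 1.86-fold rise (log2 fold change 0.90, SE 0.041, adjusted p = 1.54e-06). Wdr59, a subunit of the GATOR2 complex, fell 1.59-fold. Of 7 tested subunits and activators of AMP-activated kinase, which starts autophagy when energy is low, 3 rose and 1 fell. Prkab1, a regulatory subunit, rose 1.40-fold, and Prkaa2, a catalytic subunit present at 4.65 ± 0.662 CPM with the inhibitor and 2.09 ± 0.255 CPM with DMSO, rose 2.23-fold.

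Lists for selective autophagy and fusion were mixed. Of 10 mitophagy genes 3 rose and 1 fell. Usp30, a mitochondrial deubiquitinase, rose with a log2 fold change of 0.38 and Bcl2l13, a receptor on the outer membrane, fell 1.20-fold. Of 10 tested receptors and adaptors for other cargo 2 rose and 3 fell. Those that fell included Ncoa4, the receptor for ferritin, at 13.6 ± 0.731 CPM with the inhibitor and 22.3 ± 0.417 CPM with DMSO (1.64-fold), and Wdfy3, an adaptor for protein aggregates (1.56-fold). Of 8 further membrane and PI3P factors 3 rose and 1 fell, with Zfyve1, the marker of omegasomes, up 1.21-fold and the sorting nexin Snx18 down 1.25-fold. Of 13 fusion genes 6 rose and 3 fell. The SNARE gene Ykt6 rose 1.29-fold, while the SNARE gene Vamp8 fell 1.46-fold, to 84.9 ± 1.29 CPM with the inhibitor, against 124 ± 7.05 CPM with DMSO.

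LC3-associated phagocytosis, in which oxidants from the NADPH oxidase precede attachment of LC3 to phagosomes, was covered by 6 oxidase genes, of which 3 fell. Cybb, the catalytic subunit of the oxidase, had 2242, 2141 and 2253 CPM in inhibitor libraries, against 4055, 4175 and 4157 CPM in DMSO libraries. It fell 1.87-fold without overlap (log2 fold change -0.90, SE 0.044, adjusted p = 1.91e-06). Ncf1, a cytosolic subunit, fell 1.63-fold. In the same libraries the summed macrophage markers, the largest part of them Lyz2, were also lower, as given above. Csf1r and Cd68 among them were not called, and a link with the oxidase genes was not tested.

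**Figure D4:**
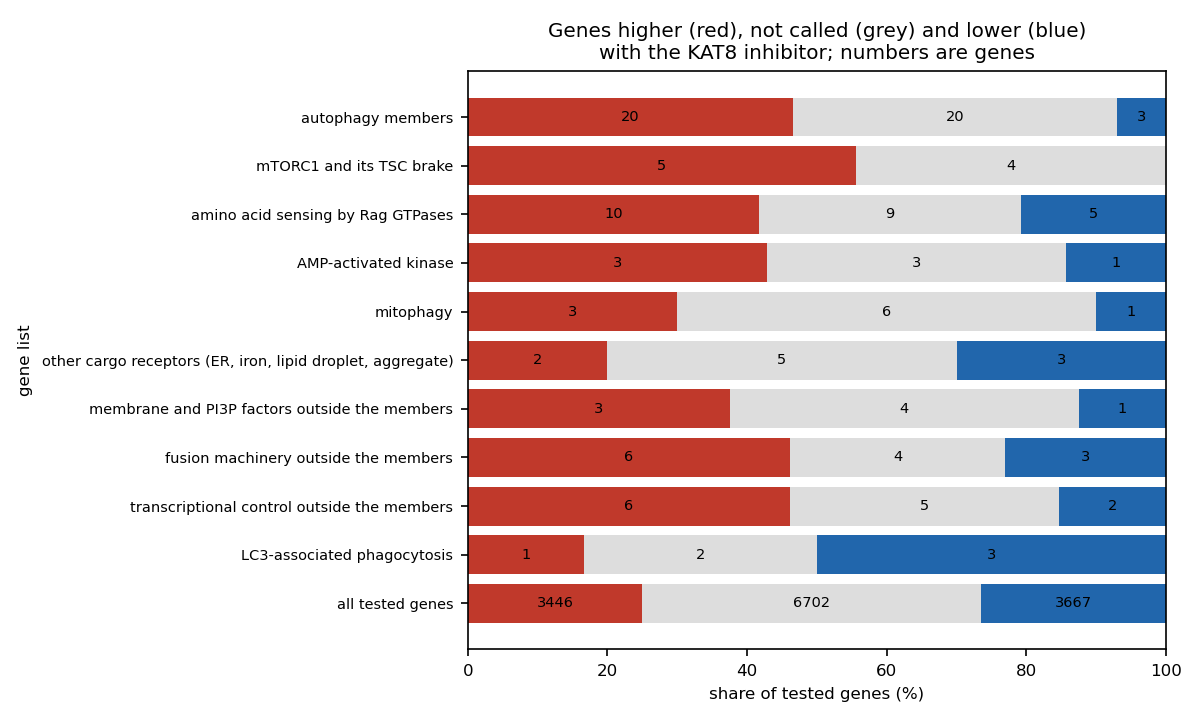
Share of tested genes (%) that were higher, not called or lower with the KAT8 inhibitor at an adjusted p under 0.05, for the 43 autophagy genes, for 9 further lists and for all tested genes. Among the autophagy genes 20 were higher and 3 lower, and among all tested genes 3446 were higher and 3667 lower.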

How the data were processed

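RNA sequencing of wild-type mouse macrophages was analysed from 1 table of raw, unscaled read counts per Ensembl gene that the authors deposited, in which each library is a column. The submitters' processing notes list StringTie 1.3.0, HISAT2 and edgeR, and build mm10. The sources used here do not say what each tool did, how reads were counted or whether strand was used, so reads of overlapping genes cannot be told apart. Groups and replicate numbers came from the titles. The labels do not say that replicates were separate cultures or animals, so p-values measure only how far these libraries differ, and that spread may be technical. No library was a copy of another (chi-square per degree of freedom 9.09 to 14.0 within groups and 84.7 to 102 between groups).

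For testing, edgeR 4.0.16 (R 4.3.3) was used: filterByExpr with its minimum count of 10, TMM factors, and a quasi-likelihood F test on pretreatment with no other term. The call was an adjusted p under 0.05, by Benjamini-Hochberg over 13815 genes. Fold changes are inhibitor over DMSO. SE was obtained by dividing the size of the log2 fold change by the root of F. Levels are TMM-scaled CPM, as mean ± SD over 3 libraries, and 3 counts correspond to 0.116 to 0.166 CPM. Such limits cover counting error only. The procedure was tested on simulated counts. There far fewer genes differed than were called here, so the simulation does not cover so broad a difference. Coordinates, exon lengths and exon overlaps came from the GENCODE annotation of the same build, and exons of 15 members overlapped another gene. Promoter windows were those of RefSeq (GRCm38.p6).

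The members and all lists were chosen with earlier results of these data known. Values in every library are given for members called with an absolute log2 fold change of at least 0.5, and for the member of each role with the highest level per kb of exon. From each further list the 2 called genes with the smallest p are named. Other genes given with values were chosen after their values were seen, and some genes of the lists are not reported here. Alternatives were median-of-ratios scaling, library totals, DESeq2 1.42.0, no filter, a filter on means under 5 CPM, a replicate block, an adjusted p under 0.01, and each library left out in turn. Removal of GC content and exon length trends was chosen after seeing the data.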

Additional observations from a re-analysis of the deposited data

How the results depend on the processing

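Of the 23 called members, 19 kept their call in all 14 alternatives, and no called member changed direction. The exceptions were Ulk1, Atg5, Nbr1 and Calcoco1. With libraries left out in turn, 16 to 19 members rose and 3 to 4 fell, 2851 to 3269 of all genes rose and 3230 to 3611 fell, and the members' median log2 fold change was 0.17 to 0.21. That median was 0.29 with library totals and 0.23 after removal of GC content and exon length trends, where 29 and 25 members rose, and the medians of all genes were then 0.12 and 0.07. With trends removed, 4273 of all genes rose and 3236 fell. At an adjusted p under 0.01, 2257 genes rose, beside 3446, and 16 members rose and 3 fell. Same-numbered libraries did not deviate together over all tested genes (r = -0.03, 0 and 0.02). The labels do not say whether the numbers pair the samples, and these correlations cannot decide it. With the replicate block 18 members rose and 3 fell, 3215 of all genes rose and 3510 fell, and Atg5 and Calcoco1 were not called. Members called only in an alternative were Rb1cc1, Pik3c3, Map1lc3a, Gabarap and Tfe3 (library totals and trends removed), Atg4b, Atg4d, Atg10 and Tax1bp1 (library totals), and Becn1 (DESeq2). With a library left out they were Rb1cc1 and Atg7 (DMSO replicate 1), Becn1 (inhibitor replicate 1 or DMSO replicate 2), Pik3c3 (DMSO replicate 3) and Map1lc3a (inhibitor replicate 3).

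Members that were not called changed sign as follows. With library totals the log2 fold change was 0.02 for Ulk2, 0.04 for Atg9a, 0.10 for Atg3, 0.04 for Map1lc3b and 0.08 for Gabarapl1. With trends removed it was 0.02 for Atg2a, 0.01 for Atg9a, 0.02 for Atg3 and 0.05 for Gabarapl1. Without a filter Atg3 was at 0.00. With each library left out in turn, Atg3 was at -0.06 to 0.02 (above 0 without inhibitor replicate 1 or DMSO replicate 2), Atg9a at -0.12 to 0.02 (above 0 without inhibitor replicate 2) and Gabarapl1 at -0.07 to 0.00 (sign changed without DMSO replicate 2). The cause of these changes was not tested. The lowest member count in a library was 83, for Atg10.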
